A study of Homo sapiens with 8 samples.

Results

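Chromatin remodelling complexes use the energy of ATP to slide, eject or exchange nucleosomes and so set which stretches of DNA are open to the transcription and repair machinery. They are built around 4 families of motor protein: SWI/SNF, CHD, INO80 and ISWI. In neuroblastoma, a childhood tumour of the sympathetic nervous system, mutations or deletions of ARID1A, ARID1B, ATRX and the region that holds CHD5 are known. The members described here are the genes whose symbols match the naming patterns of these complexes in a deposited list of positions of N1-methyladenosine (m1A), a methyl group on the base-pairing face of adenine. They are 35 of the 4945 genes in that list, with 145 of its 9962 positions, or 1.46%. One of the 35, SMARCA5-AS1, is a non-coding RNA on the opposite strand of SMARCA5, and both of its positions are also positions of SMARCA5, which gives 147 records of a position and a gene.

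The study silenced TRMT6, the non-catalytic partner of the methyltransferase TRMT61A, with small interfering RNA in neuroblastoma cells. The labels give siTRMT6 m1A immunoprecipitates, siTRMT6 input, control m1A immunoprecipitates and control input, with 2 samples in each group, all from polyadenylated RNA, and they name the cells SK-N-BE in the titles and SK-N-AS elsewhere. The labels do not say what the control cells were transfected with, how long after transfection they were taken, or whether replicates were separate cultures, so p-values measure only the spread between libraries, which may be technical. The 4 count columns carry the names of the conditions, and are taken as the m1A libraries siTRMT6 1, siTRMT6 2, control 1 and control 2; input reads are not used here, so a change of m1A cannot be told apart from a change in the amount of a transcript.

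The libraries were of unequal size. They held 40771 and 13812 reads at listed positions in siTRMT6 1 and siTRMT6 2, against 8655 and 46007 in control 1 and control 2. These are not full sequencing depths. The largest p-value in the authors' deposited table was 0.0478, so every listed position had a small p-value in their comparison of the conditions. Bases with similar counts in siTRMT6 and control would be missing, and the list is not a full list of m1A positions. A listed 0 may mean no reads or no call. TRMT6 itself had no listed position, so its silencing could not be checked. Of the noradrenergic neuroblastoma markers, 7 of 9 genes were listed, among them MYCN with 48 and 59 reads in the siTRMT6 libraries and 50 and 53 in the controls. Of the mesenchymal markers, 2 of 9 were listed (VIM and TWIST1), and of the Schwann cell and blood cell markers 0 of 4 each. Of all protein-coding genes 20.7% were listed. A listing depends on a small p-value between conditions, so these counts do not tell the cell type.

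RefSeq promoter windows of the same genome build, GRCh38.p14, reached 2 of the member positions, and these sequences are shown because they tell which base was listed. Each is 29 bases long, 5′ to 3′, with the listed base in capitals.
RBBP4, plus strand, chr1:32651293-32651321: ctcgcctgcccgccAtggccgacaaggaa
SMARCD2, plus strand of the genome, chr17:63842635-63842663: gcgggggcagcgggAacccgcccgcgcct
SMARCD2, strand of its transcript: aggcgcgggcgggtTcccgctgcccccgc
RBBP4, a histone-binding subunit of NuRD and other complexes, is transcribed from the plus strand, and its listed base, with 7 reads in control 1, was an A that opens an ATG triplet. SMARCD2, a SWI/SNF subunit, is transcribed from the minus strand. Its listed base, with 6 reads in control 1, was an A on the plus strand of the genome and so a T on the strand of its transcript, a U in the RNA.

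Every listed position that a promoter window covered behaved as these 2 did. Of the 170 covered positions in plus-strand transcripts, 170 were A on the transcript (lower bound of the Wilson 95% interval 97.8%). Of the 384 in minus-strand transcripts, 384 were A on the plus strand of the genome (lower bound 99.0%) and 0 were A on the transcript. The base numbered 1 lower, which is the number written in the deposited table, was A at 40, C at 204, G at 252 and T at 55 positions where the window reached it, so the table counts from 0, and positions are given here counting from 1. The windows do not reach the other 27 records of protein-coding members on the minus strand, in genes such as CHD4, CHD8, BAZ1A, BAZ1B and BAZ2A, and their base was not read. The letters GTTCNA, which tRNAs carry in the loop that TRMT6 and TRMT61A methylate, were searched on both strands in 41 bases around a position. They were in 0 of the 2 member windows, in 11 of the 481 complete windows (2.29%) and in the middle 41 bases of 3.62% of all 35116 promoters in the table.

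RefSeq holds 58 protein-coding genes that match the patterns, and 34 of them were listed (58.6%), against 20.7% of all 20056 protein-coding genes. Listed protein-coding members had 117 records on the plus strand and 28 on the minus strand. Of the members in the promoter table, which gives the strand of genes whether listed or not, 16 of 25 plus-strand genes (64.0%, interval 44.5 to 79.8) and 11 of 21 minus-strand genes (52.4%, interval 32.4 to 71.7) were listed, and the intervals overlap. Over all protein-coding genes of that table, 27.9% of plus-strand genes and 15.5% of minus-strand genes were listed. Listed members spanned a median of 73123 bases of the genome and members not listed 76004. Transcript abundance was not measured, and its part in which genes were listed was not tested.

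Member positions lay mainly in coding sequence. Of the 147 records, 127 were coding (86.4%, interval 79.9 to 91.0), 10 were in a 5' UTR, 8 in a 3' UTR and 2 in non-coding RNA. Among all records of the list 61.7% were coding (60.8 to 62.7), 11.3% in a 5' UTR and 21.1% in a 3' UTR. The strands differed in both sets. On the plus strand 91.5% of member records were coding and 2.56% in a 5' UTR (3 of 117, in SMARCA4, CHD7 and ARID4A), against 69.3% and 6.03% in the whole table. On the minus strand 66.7% were coding and 23.3% in a 5' UTR (7 of 30, in BAZ1A, BAZ1B, MTA2 and RUVBL1), against 40.8% and 25.8%. Positions of 1 gene share their source, so these intervals cover counting error only.

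**Figure D1:**
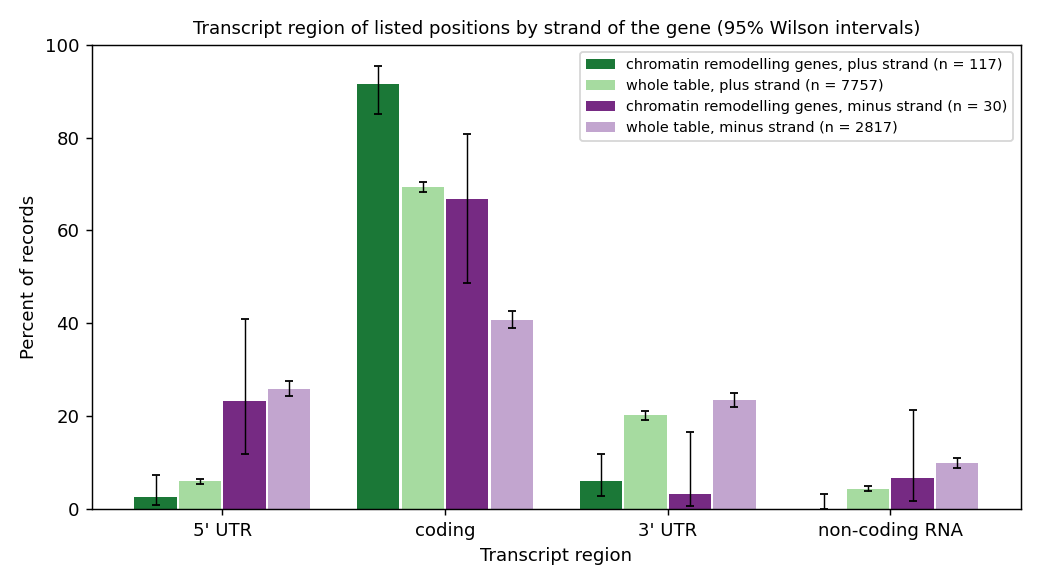
Share of records (percent, y axis) in each transcript region (x axis), for chromatin remodelling genes and the whole table, split by the strand of the gene; lines are 95% Wilson intervals. Coding records made up 91.5% of the member records on the plus strand and 66.7% on the minus strand, and 5' UTR records 2.56% and 23.3%.

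Summed over members, the siTRMT6 libraries held 618 and 239 reads, against 158 and 540 in the controls. As a share of a library's listed reads this was 1.52% and 1.73% in siTRMT6 (mean 1.62 ± 0.152, SD, n = 2) and 1.83% and 1.17% in control (1.5 ± 0.461, SD, n = 2). The siTRMT6 shares lay between the control shares (2-sided exact permutation p = 1.0, where 0.333 is the smallest that 2 against 2 allow). Of the 145 positions, 76 were higher in siTRMT6 in the authors' deposited table (52.4%), against 49.6% of all positions, and 69 were lower, against 50.4%. Since nearly every position had reads in 1 library only, this direction says in which condition a position was listed. Without siTRMT6 1, 25 of 94 member positions were higher (26.6%, against 21.8% of all positions). Without control 2, 76 of 94 were higher (80.9%, against 85.8% of all), so the order of members and all positions turned round.

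**Figure D2:**
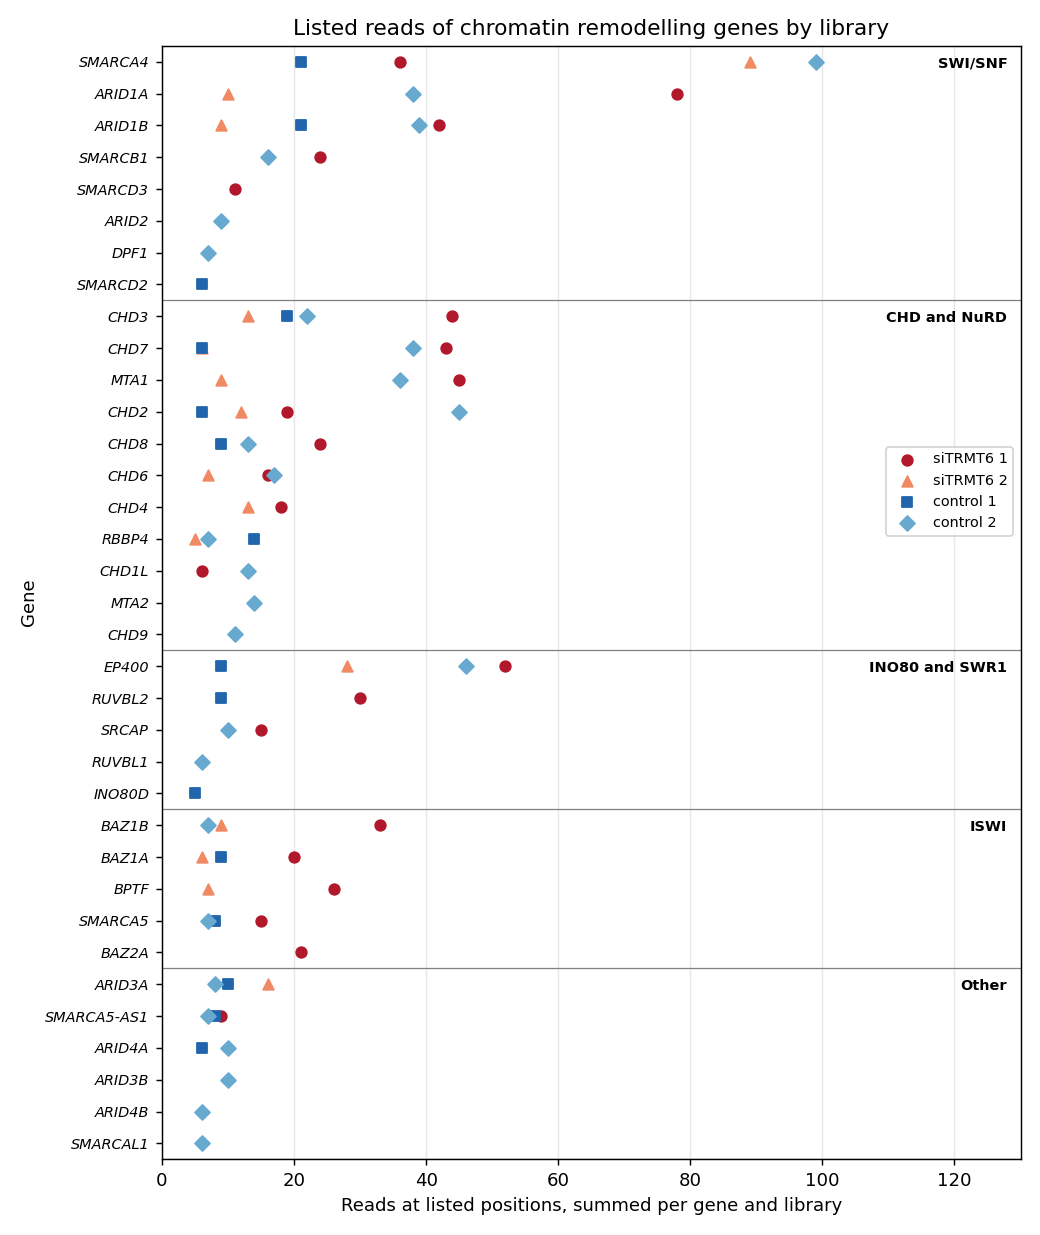
Reads at listed positions summed per gene and library (x axis, linear), for the 35 genes ordered by complex group (y axis); each point is 1 library, and a library with no listed reads has no point. SMARCA4 has the highest points, 89 in siTRMT6 2 and 99 in control 2, and in CHD7 the points of siTRMT6 2 and control 1 coincide at 6.

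SWI/SNF complexes slide and eject nucleosomes and come in forms named BAF and PBAF. Of 16 protein-coding members 8 were listed, with 45 positions, 23 higher and 22 lower in siTRMT6 in the authors' deposited table. The group held 0.468% and 0.782% of the listed reads of the siTRMT6 libraries, against 0.555% and 0.452% in the controls, and these ranges overlap (exact permutation p = 0.667). Not listed were SMARCA2, the alternative ATPase of the complex, the scaffold subunits SMARCC1 and SMARCC2, PBRM1 of PBAF, SMARCD1, SMARCE1, DPF2 and DPF3.

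SMARCA4, the BRG1 ATPase, had 18 positions, the most of any member; the highest number in any gene of the table was 19. It had 36 and 89 reads in siTRMT6, against 21 and 99 in control. Scaled to listed reads, siTRMT6 1 stood at 0.0883% (interval 0.0638 to 0.122) and siTRMT6 2 at 0.644% (0.524 to 0.792), while the controls stood at 0.243% and 0.215%. The siTRMT6 libraries thus lay on either side of both controls. They also differed in where their reads lay: siTRMT6 1 had 18 reads at each of transcript positions 5100 and 5368, near the end of the mRNA. Of the 7 positions of siTRMT6 2, 6 lay from 341 to 2199, with 9 to 16 reads each, and the remaining 1 at 5350. In the gene-level fit its log2 difference was 0.69 and did not pass the test (edgeR quasi-likelihood, Benjamini-Hochberg adjusted p = 1).

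In SMARCA4, reads of both conditions lay almost side by side at 3 places. At 10986480 on chromosome 19, siTRMT6 2 had 16 reads, and 2 nt away at 10986482 control 2 had 21. At 10994963 siTRMT6 2 had 10 reads, and 4 nt away control 2 had 14. At 10984287 siTRMT6 2 had 15 reads, and 20 nt away control 2 had 18. Each of these bases is a separate entry in the authors' deposited table, with a log2 fold change of 4.82 at 10986480 and of -5.58 at 10986482.

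ARID1A, a DNA-binding subunit that defines BAF complexes, had 78 and 10 reads in siTRMT6 over its 9 coding positions, against 0 and 38 in control. Its position 26774963 on chromosome 1 had 16 and 10 reads in siTRMT6 and 0 and 0 in control, at least 8.68-fold higher against a floor of 3 counts over the control group, if a listed 0 means no reads. Reads in both libraries of 1 condition and none of the other were found at 4 of the 145 member positions, in ARID1A, ARID1B, EP400 and SMARCA5, and at 1.26% of all positions. The ARID1A position was the only 1 of the members that passed edgeR's filter on low counts, and it was called higher (adjusted p = 0.00592), in a fit that called 64.7% of the 34 positions it tested. The filter keeps mainly bases with reads in both libraries of 1 condition, and this base passed through the siTRMT6 libraries alone, so the call largely restates that selection; without the filter 0 of 9962 positions were called. The call on ARID1A was lost with DESeq2 (adjusted p = 0.0712), without the filter (edgeR adjusted p = 0.519), with the replicate block (edgeR adjusted p = 0.77), and when control 1, control 2 or siTRMT6 2 was left out (edgeR adjusted p from 0.607 to 0.66). In the same gene, 15 reads of siTRMT6 1 at 26729755 lay 2 nt from 12 of control 2, and 15 reads of siTRMT6 1 at 26779733 lay 7 nt from 16 of control 2. Summed over the gene the log2 difference was 1.40, and it was not called (edgeR adjusted p = 1).

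ARID1B, the paralogue of ARID1A in the same complexes, had 42 and 9 reads in siTRMT6 and 21 and 39 in control over 9 positions. Its position 156779450 on chromosome 6 had 0 and 0 reads in siTRMT6 and 16 and 15 in control, at least 10.3-fold lower on the same condition. It missed the main filter. With equal library sizes it entered and was called (edgeR adjusted p = 0.0138), in a fit that called 78.4% of 37 positions. It was not called in the 5 other settings that tested it (edgeR adjusted p from 0.403 to 0.66). In addition, siTRMT6 1 had 19 reads 8 nt away, at 156779442, and the joined region had 19 reads in siTRMT6 and 31 in control, which was not called (edgeR adjusted p = 1). SMARCB1, the core subunit lost in rhabdoid tumours, had 24 and 0 reads in siTRMT6 and 0 and 16 in control, over 3 positions in coding sequence and 2 in the 3' UTR. SMARCD3 had 11 reads in siTRMT6 1, and ARID2 had 9 and DPF1 7 in control 2, each at 1 coding position.

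**Figure D3:**
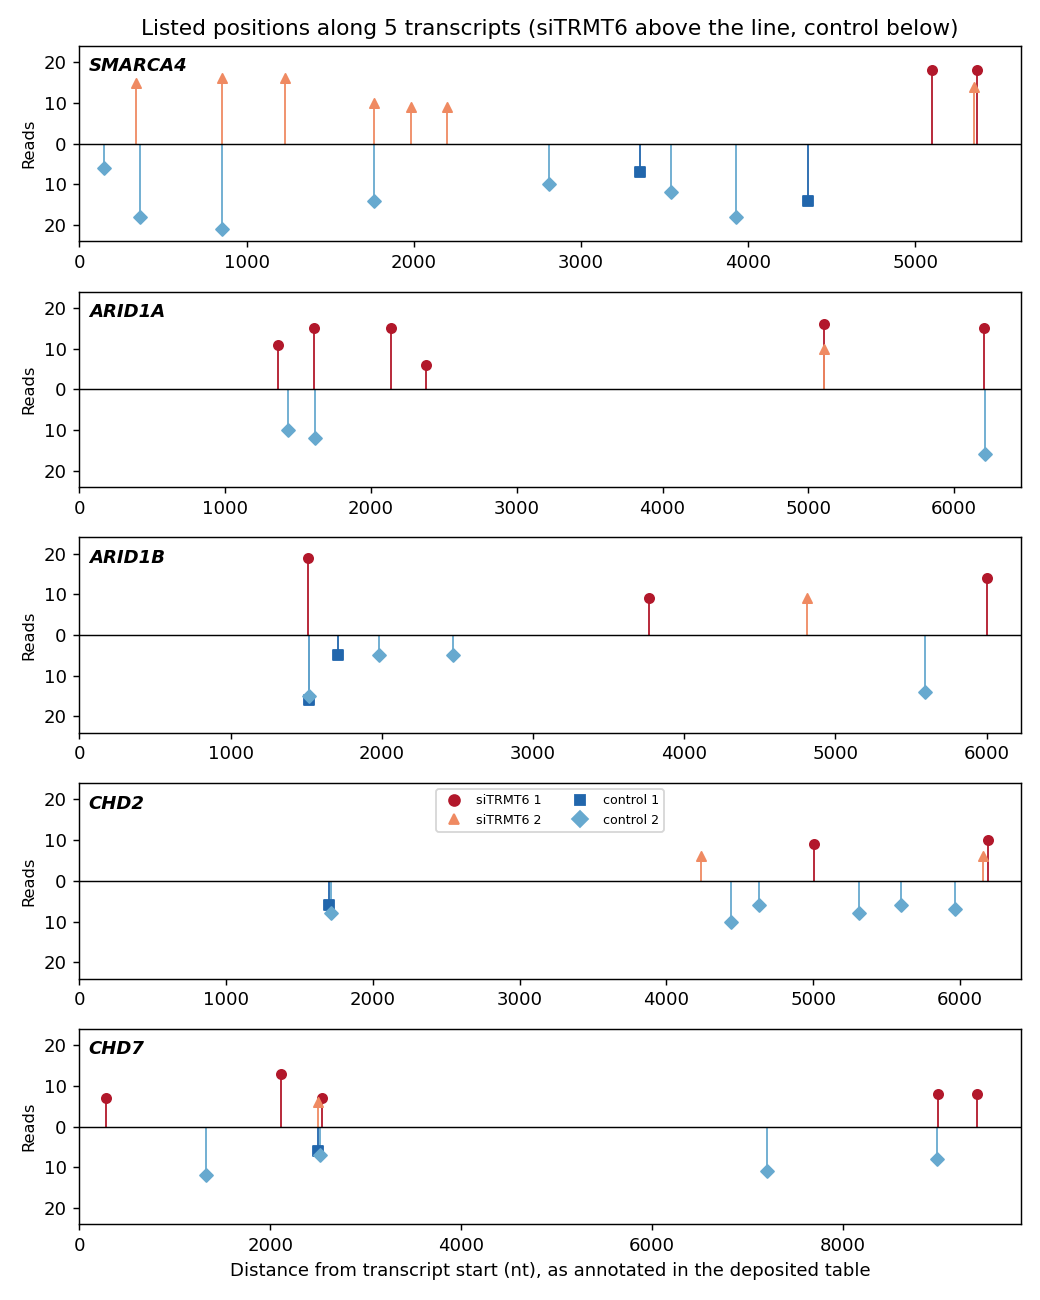
Reads at listed positions (y axis, siTRMT6 drawn upward and control downward from 0) by distance from the transcript start in nt (x axis), for 5 members annotated on 1 transcript each. In SMARCA4, siTRMT6 2 (triangles) is listed mainly up to 2199 nt and siTRMT6 1 (circles) at 5100 and 5368 nt; in ARID1A both siTRMT6 libraries share a base at 5107 nt.

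CHD proteins are chromodomain helicases; CHD3, CHD4 and CHD5 are the motors of NuRD, which joins remodelling with histone deacetylation. Of 15 members 11 were listed, with 52 positions, 25 higher and 27 lower in siTRMT6 in the authors' deposited table. The group held 0.527% and 0.471% of listed reads in siTRMT6 and 0.624% and 0.469% in control, which overlap (exact permutation p = 1.0). CHD1, CHD5, MTA3 and RBBP7 were not listed.

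CHD4 had 18 and 13 reads in siTRMT6, against 0 and 0 in control, at 2 coding bases 58 nt apart. The groups did not overlap, and the sum was at least 10.3-fold higher against the floor, if the listed 0 means no reads. The difference was not called (edgeR quasi-likelihood test, Benjamini-Hochberg adjusted p = 0.386). For 2 against 2 libraries without overlap, the exact permutation p cannot be under 0.333. How many genes of the whole table separate in this way was not counted. The same limits hold for CHD6, EP400, BPTF and BAZ1B below. CHD3 had 44 and 13 reads in siTRMT6 and 19 and 22 in control. At 7903964 and 7903956 on chromosome 17, 8 nt apart, siTRMT6 1 and control 2 had 22 reads each. A second CHD3 site held 22 and 13 reads of the siTRMT6 libraries at bases 20 nt apart.

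CHD7, the gene mutated in CHARGE syndrome, had 43 and 6 reads in siTRMT6 and 6 and 38 in control over 11 positions. Within 42 nt on chromosome 8, from 60781357 to 60781399, it held a position of each of the 4 libraries, with 7 and 6 reads in siTRMT6 and 6 and 7 in control. It was the only member region with reads in all 4 libraries; the whole table had 13. CHD2, a helicase linked to epilepsy, had 19 and 12 reads in siTRMT6 and 6 and 45 in control over 11 coding positions, 4 higher and 7 lower in the authors' deposited table.

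MTA1, a NuRD scaffold subunit, had 45 and 9 reads in siTRMT6 and 0 and 36 in control. CHD8, a helicase mutated in autism, had 24 and 0 reads in siTRMT6 and 9 and 13 in control. CHD6 had 16 and 7 reads in siTRMT6 and 0 and 17 in control. In each of these 3 genes the siTRMT6 and control counts overlapped. As shares of listed reads they overlapped in MTA1 and CHD8, while CHD6 had 0.0392% and 0.0507% in siTRMT6 against 0 and 0.037% in control, with overlapping counting intervals. RBBP4 gave the only member position with reads in both conditions at the same base: 32652056 on chromosome 1 had 0 and 5 reads in siTRMT6 and 7 and 7 in control. Reads in both conditions at 1 base were found at 14 of all listed positions. The list holds only positions with a small p-value between conditions, so bases with similar reads in both would be missing. These counts therefore do not show how often the conditions share a base. CHD1L, a helicase that binds poly(ADP-ribose), had 6 and 0 reads in siTRMT6 and 0 and 13 in control. CHD9 had 11 reads and MTA2 14, all in control 2.

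INO80, SRCAP and the EP400 complex exchange or place the histone variant H2A.Z, and share the helicases RUVBL1 and RUVBL2. Of 9 members 5 were listed, with 21 positions, 12 higher and 9 lower in siTRMT6 in the authors' deposited table. They held 0.238% and 0.203% of listed reads in siTRMT6 and 0.266% and 0.135% in control (exact permutation p = 1.0). INO80 itself was not listed, nor were INO80B, INO80C and INO80E.

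EP400 carried most of this group, with 14 positions, all coding, and 52 and 28 reads in siTRMT6 against 9 and 46 in control. Its shares of listed reads were 0.128% and 0.203% in siTRMT6 and 0.104% and 0.100% in control. Both siTRMT6 shares were above both control shares, but the counting interval of siTRMT6 1 (0.0973 to 0.167) overlapped those of both controls, and the difference was not called (edgeR log2 0.85, adjusted p = 1). At 132021235 on chromosome 12 it had 7 and 4 reads in siTRMT6 and 0 and 0 in control, and at 131990051 and 131990053, 2 nt apart, 10 reads of siTRMT6 2 stood beside 15 of control 2. EP400 has a pseudogene copy nearby, so its read numbers are uncertain. RUVBL2 had 30 and 0 reads in siTRMT6 and 9 and 0 in control, and SRCAP 15 and 0 against 0 and 10. RUVBL1 had 6 reads in control 2 and INO80D 5 in control 1.

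ISWI motors space nucleosomes evenly, and work with BAZ1A, BAZ1B, BAZ2A or BPTF as partners. Of 7 members 5 were listed, with 17 positions, 14 of them higher in siTRMT6 in the authors' deposited table and 3 lower. Of the 14, 11 came from siTRMT6 1 and 3 from siTRMT6 2. The higher share was 82.4% (interval 59.0 to 93.8), against 49.6% of all positions. BAZ1B had 5 of the positions, and BAZ1A and BPTF had 4 each. Positions of 1 gene share their source, so the interval covers counting error only. Whether the direction in this group differs from that of all positions was not tested. The group held 0.282% and 0.159% of listed reads in siTRMT6 and 0.196% and 0.0304% in control, and the ranges overlap (exact permutation p = 0.667). Its 5' UTR records were 5 of 17 (29.4%, interval 13.3 to 53.1), in BAZ1A and BAZ1B, both on the minus strand. Of the 17 positions of the group, 10 were in minus-strand genes. Among all records of the list, the 5' UTR share was 25.8% on the minus strand and 6.03% on the plus strand. Whether the 5' UTR share of the group differs from that of other minus-strand genes was not tested. SMARCA1 and BAZ2B were not listed.

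BPTF, the large subunit of the NURF remodeller, had 26 and 7 reads in siTRMT6 and 0 and 0 in control over 4 coding positions, at least 11.0-fold higher against the floor, if the listed 0 means no reads. The difference was not called in edgeR (adjusted p = 0.386). BAZ1B, in the interval deleted in Williams syndrome, had 33 and 9 reads in siTRMT6 and 0 and 7 in control, and both siTRMT6 values were above both control values, as counts and as shares of listed reads (0.0809% and 0.0652%, against 0 and 0.0152%). The difference was not called (edgeR log2 2.81, adjusted p = 1), and the share of all genes with such a separation was not counted. BAZ1A had 20 and 6 reads in siTRMT6 and 9 and 0 in control, and BAZ2A 21 and 0 in siTRMT6 and 0 and 0 in control, at 1 base in its 3' UTR. SMARCA5, the ISWI ATPase, had 8 and 7 control reads at 143514026 on chromosome 4 and 9 reads of siTRMT6 1 at a distance of 12 nt. SMARCA5-AS1 overlaps both bases on the other strand, and these reads cannot be assigned to 1 of the 2 genes. SMARCA5 had 6 further reads of siTRMT6 1 at 143521532, and so 15 reads in each condition over the gene.

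The genes outside the 4 families had 12 positions, 3 higher and 9 lower in siTRMT6 in the authors' deposited table. ARID3A, a DNA-binding factor, had 0 and 16 reads in siTRMT6 and 10 and 8 in control. ARID4A, of the SIN3 corepressor complex, had 16 reads, all in the controls, and its paralogue ARID4B had 6 in control 2. ARID3B had 10 reads and SMARCAL1, which restarts stalled replication forks, had 6, all in control 2. ATRX, SMARCAD1, ARID3C, ARID5A and ARID5B were not listed.

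**Figure D4:**
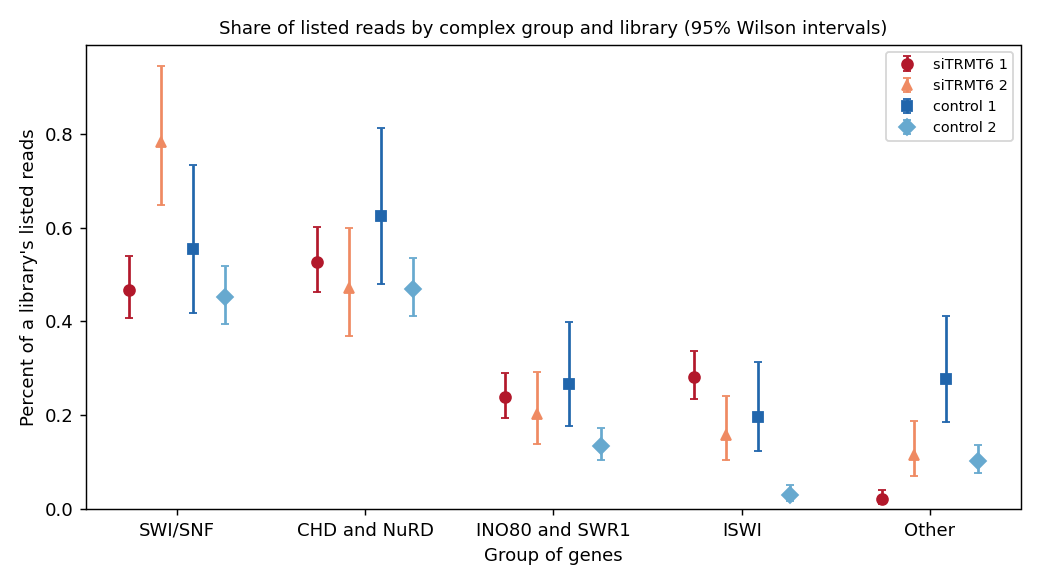
Share of each library's listed reads (percent, y axis) held by each group of genes (x axis), with 95% Wilson intervals for counting error. Libraries of 1 condition differ as widely as the conditions do: SWI/SNF holds 0.468% and 0.782% in the siTRMT6 libraries, and ISWI 0.196% and 0.0304% in the controls.

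Of the 24 members with more than 1 position, 19 had positions listed in both directions (79.2%, interval 59.5 to 90.8), against 76.5% of such genes in the whole table. This held for each of the 11 members with 5 or more positions, and for 400 of 411 such genes in the table. BPTF and CHD4 were higher in siTRMT6 at every position, and ARID4A, CHD9 and RBBP4 lower. Of the 11 members with a single position, 9 were lower, as were 1400 of 2424 such genes in the whole table.

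Joining positions of a gene within 200 nt of each other gave 117 member regions, and 21 of these, SMARCA5-AS1 included, held both conditions (17.9%, interval 12 to 25.9), against 17.3% of all 8488 regions. In the 21 regions, the median log2 of siTRMT6 over control, scaled by listed reads, was -0.17, with a range from -1.48 (RBBP4) to 0.42 (CHD8); over all regions of this kind the median was -0.15. At least 2-fold differences were seen in 1 of the 21 regions, RBBP4, against 92 of 1470 in the whole table. With positions joined within 500 nt they were seen in 2 of 22, against 126 of 1570 in the whole table. Such regions are selected for having a listed count in each condition, so values near 0 do not show that m1A was unaltered.

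**Figure D5:**
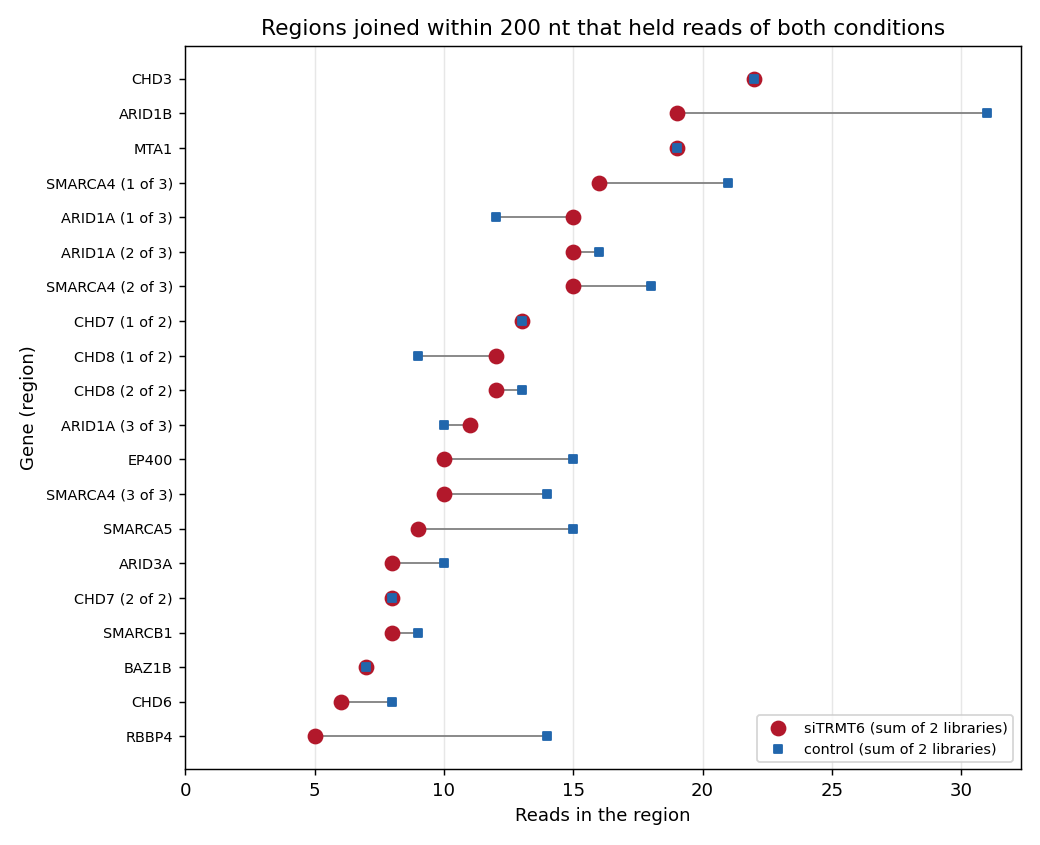
Reads of siTRMT6 (circles) and control (squares), each summed over 2 libraries (x axis), in the member regions with both conditions (y axis, ordered by siTRMT6 reads); SMARCA5-AS1 is left out because it repeats SMARCA5. CHD3, MTA1, CHD7 and BAZ1B have regions with equal reads, and ARID1B and RBBP4 show the widest gaps, 19 against 31 and 5 against 14.

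Members had 29 pairs of neighbouring positions within 200 nt, from 1 to 130 nt apart with a median of 18 nt; in the whole table the median was 21 nt. Different conditions made up 20 of the pairs (69.0%, against 75.2% in the table), and 9 joined replicates of 1 condition. In 11 of the 20, siTRMT6 1 stood beside control 2, the largest library of each condition. None of the 29 came from the same library. Within a library, the closest 2 positions of a member were 413 nt apart, and of any gene 317 nt.

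Tested as 4 libraries with edgeR, no member region or gene was called. Of 11 member regions tested, 0 were called, as were 0.0% of all 525, and 4 had an unadjusted p under 0.05, against 25.0% of all. These were the ARID1A base at 26774963, the CHD3 site at 7890692, the CHD4 site and a SMARCA4 site at 11062017, each with reads of both siTRMT6 libraries and none of control (adjusted p = 0.0606 in edgeR). They passed the filter on low counts through the siTRMT6 libraries alone, so their small p is not separate support for a change. Without the filter, 4 of 117 member regions had an unadjusted p under 0.05 in edgeR, against 226 of all 8488. When scaled by summed listed reads in place of TMM, 3 of 11 did, against 57 of all 525. With DESeq2, with equal library sizes and with the replicate block, 0 member regions had an unadjusted p under 0.05. Over all regions these numbers were 10 of 525, 2 of 814 and 1 of 525. Of 17 member genes tested, 0 were called, as were 0.0% of all 975, and 2 (BPTF and CHD4) had an unadjusted p under 0.05, against 12.9% of all; these genes too passed the filter through the siTRMT6 libraries alone. DESeq2 called 0 of the same 17, against 1 of all 975, and 0 had an unadjusted p under 0.05, against 45 of all. The median log2 of the 17 was 0.83 with TMM scaling, beside 0.24 over all genes tested, but -0.03 beside 0.15 when scaled by summed listed reads, so no direction can be given for the members as a group.

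Other subunits of the same complexes were counted from a list of 54 genes. Of these 54 genes 22 were listed, beside 20.7% of all protein-coding genes. They had 55 positions, 26 higher and 29 lower in siTRMT6 in the authors' deposited table, where 49.6% of all positions were higher. Of the 2 that could be tested per gene, 0 were called higher and 0 lower in edgeR. GATAD2A, a NuRD subunit, had 31 and 35 reads in siTRMT6 and 23 and 31 in control over 10 positions. TRRAP, the scaffold of the TIP60 complex, had 14 and 0 reads in siTRMT6 and 0 and 63 in control over 10 positions. MORF4L1, of the same complex, had 13 and 9 against 0 and 37. TFPT and ZNHIT1, of the INO80 and SRCAP complexes, had 32 and 22 reads, all in siTRMT6 1. HDAC1, a deacetylase of NuRD, had 5 reads in each control library, and HDAC2 was not listed.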

How the data were processed

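The authors deposited a table of 25539 lines, which lists m1A positions once for each transcript, with whole-number counts for 2 siTRMT6 and 2 control libraries, and the authors' log2 fold change, p-value and adjusted p-value. Per the submitters' processing notes, FastQC 0.11.3, STAR and the build hg38 were used. The caller, counting rule, strand setting and test: not given in the sources used here. The authors' log2 values and p-values are quoted as theirs. A line was kept once per position and gene, with the region of the first transcript listed; for 4 member records other transcripts give another region.

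Counts were summed per position, per region (positions of a gene joined within 200 nt) and per gene, and fitted over the whole table with edgeR 4.0.16 in R 4.3.3 (TMM, filterByExpr with minimum count 10, quasi-likelihood test, Benjamini-Hochberg at 0.05). The steps were also run on simulated counts of higher depth than these data. That run does not measure power or error at the depth here. Shares have 95% Wilson intervals, which cover counting error only. Floors are 3 counts over a group. Alternatives were other scalings, DESeq2 1.42.0, no filter, a replicate block, other joining distances, an adjusted p under 0.01 in the deposited table, and leaving out each library. The members, groups and lists were chosen with earlier results of these data known. Named members are those called, shared between libraries, among the 20 with most reads, with 5 or more positions, or core ATPases; the remaining listed members are given too. Read totals per gene are not scaled by length and give no order of levels. A base was read only where a RefSeq promoter window (250 bases before to 50 after a start) held it.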

Additional observations from a re-analysis of the deposited data

How the results depend on the processing

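The count of called positions (22) was 29 with equal library sizes, 14 with summed listed reads in place of TMM, 0 with DESeq2 (14 at an unadjusted p under 0.05), 0 without the filter and 0 with the replicate block (0 unadjusted in both), and ranged from 0 to 0 when each library was left out in turn. The ARID1A position had 0 and 0 reads in control, so no setting could turn its direction. It was higher in siTRMT6 in the 8 alternatives that tested it (log2 values from 6.46 to 7.07), which is no separate support. It was called in 2 of these and lost the call in 6: DESeq2 (adjusted p = 0.0712), no filter (0.519), the replicate block (0.77), and without control 1 (0.612), control 2 (0.66) or siTRMT6 2 (0.607). Without siTRMT6 1 it was not tested. With 3 libraries, the lone library of a condition is assumed to vary like the others. No region was called under any alternative. The count of called genes (0) was 1 with DESeq2, the non-member MT-ND6 (adjusted p = 0.0198), and 0 under each other setting. Replicate numbers are shared by label only (correlation of deviations 0.159 over 774 genes), and the block is given for that reason.

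At an adjusted p under 0.01 in the authors' deposited table, 49 of 90 member positions were higher (54.4%, against 46.2% of all positions) in place of 76 of 145. Leaving out each library gave 25 to 76 higher positions, 27 to 35 listed members and 85.5 to 87.4% coding records. Depth at a median of 9 reads per position limits every comparison of single bases.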

Other observations

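Positions per library are given here by group; differences between groups were not tested. The whole table had 3607 and 1414 positions in siTRMT6 1 and siTRMT6 2, against 819 and 4269 in control 1 and control 2. In SWI/SNF, siTRMT6 1 had 15 positions and siTRMT6 2 had 9, against 5 and 18 in control 1 and control 2. In ISWI the numbers were 11 and 3 in siTRMT6, against 2 and 2 in control. In the CHD and NuRD group they were 18 and 8 in siTRMT6, against 6 and 22 in control, and in the INO80 group 9 and 4, against 3 and 6. SMARCA4 alone held 7 of the 26 member positions of siTRMT6 2, but 2 of the 53 of siTRMT6 1.

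The minus-strand records of the whole table numbered 2817 and the plus-strand records 7757. Of the 554 covered positions, 384 were in minus-strand transcripts. Positions outside promoter windows were not read.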
